A study of Canis lupus familiaris with 12 samples.

Results

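Oligodendrocytes are the cells that wrap axons of the brain in myelin, a compacted membrane rich in cholesterol and galactolipids. They arise from precursor cells that divide under platelet-derived growth factor, pass through a short newly formed stage and then switch on the genes of the myelin sheath. In the hippocampus they are sparse among the neuron layers and dense in the fibre tracts at its edge. A list of 30 genes of this lineage was followed here in dog hippocampus, and the members were taken by symbol. Of these, 29 were found among the 31158 gene models of the hippocampal table, and LHFPL3 is not analysed here. They fall into 9 precursor genes, 5 genes of newly formed oligodendrocytes and 15 myelin genes.

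The paced arm comprised hippocampus of beagle dogs after 2 weeks of rapid atrial pacing, in which the atria are driven electrically at a high rate, and the sham arm hippocampus of beagles after a sham operation, with 3 libraries in each. The labels give no genetic change in either arm, and state neither sex nor age. The study asks how atrial fibrillation bears on cognitive impairment. The labels do not state that each library came from a separate dog, so p-values measure the spread between these samples, which may be technical.

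Libraries held 35003483 to 43425895 assigned reads in pacing and 36573169 to 51789497 in sham. Of the 16090 genes tested, 4 passed at an adjusted p under 0.05 (0.0249%), with 3 higher (0.0186%) and 1 lower (0.00622%) in pacing, none of them a member. Under median-of-ratios or quantile scaling 3 of 5 passing genes were higher. In a principal component analysis of all tested genes sham replicate 2 was far from the rest: its first score (45.3% of variance) was 39.6, against 8.61 for sham replicate 3 and scores of -13.5 to -9.62 elsewhere. Sham replicate 3 was in turn extreme in its second score (25.5% of variance), at 29.1. Neuronal (RBFOX3, SNAP25), astrocytic (GFAP, AQP4) and hippocampal (PROX1, NEUROD6) markers were present in every library, as the tissue label states. Fewer cells of a type and less RNA per cell cannot be told apart in such bulk samples.

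The members spanned a wide range of levels. Levels are given as RPKM, reads scaled to exon length and to the assigned reads of the library, so that levels of different genes can be set side by side. MOBP was the most abundant member, with a mean of 346 RPKM over the 6 libraries, followed by BCAS1 at 278, MBP at 178, CNP at 125.4, ERMN at 104 and OPALIN at 62.2 RPKM. MOBP, BCAS1 and MBP together held 58.9% of the RPKM of the members. The most abundant precursor members were OLIG1 at 53.0 and BCAN at 32.3 RPKM, while PDGFRA had 5.09 RPKM and OLIG2 had 3.47 RPKM. CSPG4, at 0.212 RPKM, lay below the mean of 0.5 RPKM needed for testing, so that 28 members were tested. MBP is measured over 18796 bases of exon on chromosome 1 from 2841801 to 2952553, the longest exon length among the members, and its RPKM is an average over all of it. The members as a whole took 0.709% to 0.881% of all assigned reads in pacing and 0.506% to 1.27% in sham.

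**Figure D1:**
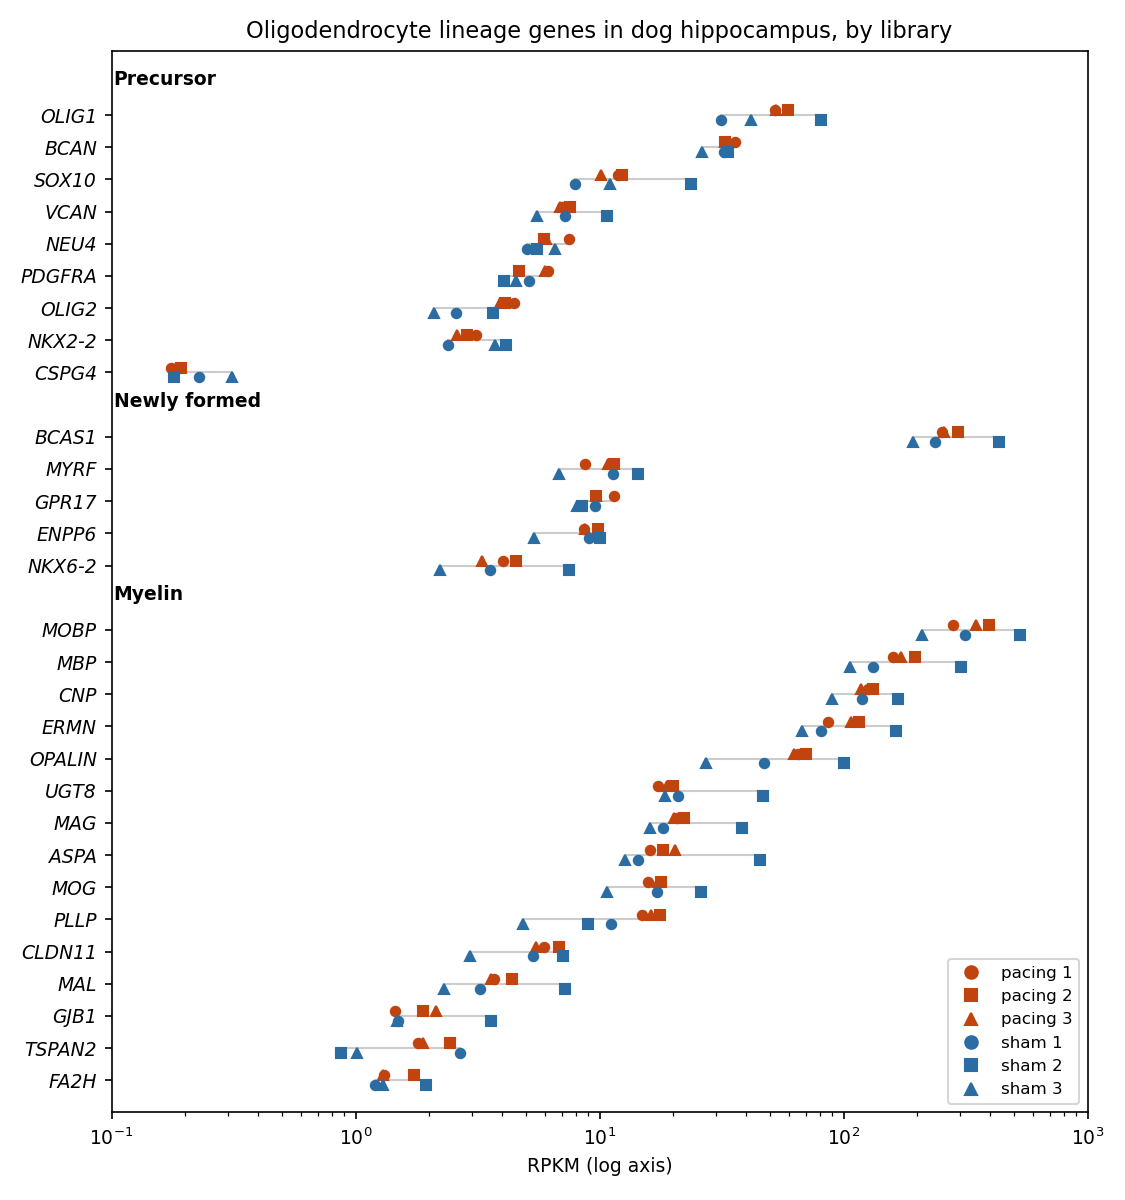
RPKM of the 29 members on a log axis, each point 1 library (circle, square and triangle for replicates 1, 2 and 3; pacing in orange above sham in blue), with a grey line over the range of the 6 libraries and members ordered by mean level within each class. For most myelin members the 3 pacing libraries lie close together between sham replicate 3 at the low end and sham replicate 2 at the high end.

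The comparison of pacing with sham asked whether transcripts of the lineage differed in the hippocampus of paced dogs. None of the 28 tested members passed in limma's test on log2(RPKM + 1) with Benjamini-Hochberg adjustment over all genes. At an unadjusted p under 0.05, 2 members were higher in pacing (PLLP and OLIG2) and 0 were lower, where 2.85% of all genes were higher and 6.3% lower. By arm mean on the log2 scale 17 members were higher and 11 lower, a share of 60.7% higher beside 41.1% of all genes tested. The count rested on single sham libraries: 26 of 28 were higher without sham replicate 2 and 8 of 28 without sham replicate 3, while the share of all genes was 42.5% and 44.1%. Under median-of-ratios scaling 21 of 28 members and 50.5% of all genes were higher, under quantile scaling 20 of 28 and 49.9%, and with library weights 26 of 28 and 40.4%. The pacing libraries all lay above the sham libraries for PLLP, OLIG2 and GPR17, and for no member did they all lie below (4.92% of all genes lay above and 11.3% below).

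**Figure D2:**
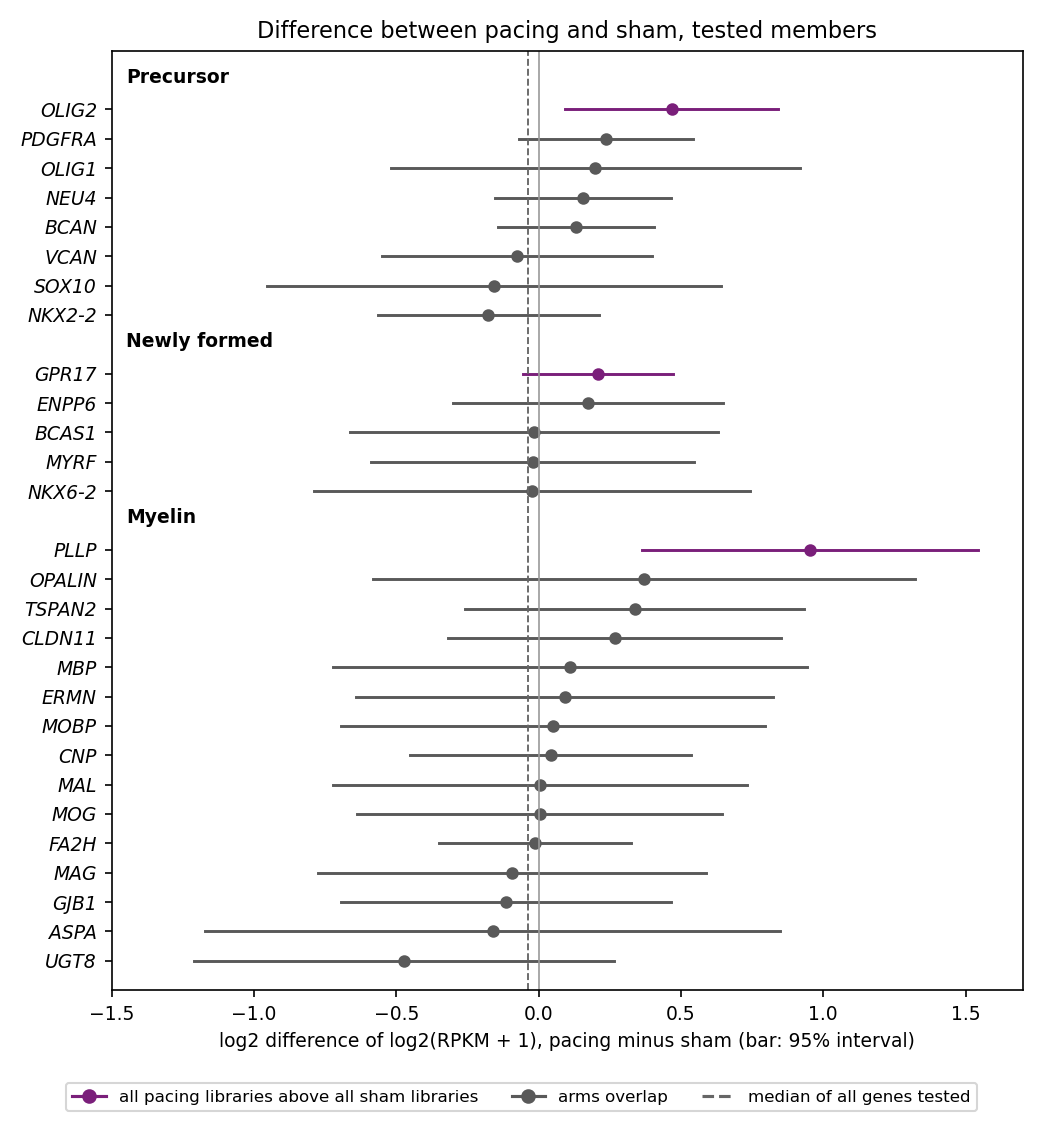
Log2 difference of log2(RPKM + 1), pacing minus sham, with its 95% interval from limma for the 28 tested members, by class. Purple marks the 3 members (OLIG2, GPR17 and PLLP) whose pacing libraries all lie above the sham libraries, and the dashed line is the median of all genes tested, at -0.037.

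Genes of the precursor stage had a median log2 difference of 0.14 over 8 tested members (5 higher, 3 lower), which was -0.0050 without sham replicate 1. PDGFRA, the receptor through which platelet-derived growth factor drives precursor division, lies on chromosome 13 from 46729722 to 46775828. It stood at 6.13, 4.68 and 5.97 RPKM in pacing and at 5.14, 4.06 and 4.56 RPKM in sham (log2 difference 0.24, SE 0.13, adjusted p = 0.611). The arms overlapped, since pacing replicate 2 lay below sham replicate 1. PDGFRA is also made by fibroblasts, whose 5 markers summed to 5.58 to 8.39 RPKM in pacing and to 4.57 to 8.39 RPKM in sham, and their part in its level was not tested. CSPG4, the NG2 proteoglycan of precursors and pericytes, had 164 reads in pacing and 240 in sham.

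OLIG2, a basic helix-loop-helix transcription factor required for the lineage, had 4.48, 4.10 and 3.90 RPKM in pacing and 2.59, 3.67 and 2.09 RPKM in sham. Every pacing library was above every sham library, and the difference did not pass over all genes (log2 difference 0.47, SE 0.16, 95% interval 0.092 to 0.84, unadjusted p = 0.0213, adjusted p = 0.473). Its neighbour and relative OLIG1 lies 41403 bases downstream on the same strand of chromosome 31. OLIG1 had 52.3, 59.0 and 52.7 RPKM in pacing and 31.4, 80.7 and 41.9 RPKM in sham (log2 difference 0.20, SE 0.31, adjusted p = 0.859), so the paced libraries lay inside the sham range. Both genes were measured over exons that no other gene model of the table overlaps.

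SOX10, the transcription factor kept on through the whole lineage, had 11.9, 12.4 and 10.1 RPKM in pacing and 7.90, 23.8 and 11.1 RPKM in sham (log2 difference -0.16, adjusted p = 0.905). It was 3.01 times as high in sham replicate 2 as in sham replicate 1, its lowest library. NKX2-2, a homeodomain factor of the precursor-to-oligodendrocyte step, had 2.86 ± 0.258 RPKM in pacing and 3.42 ± 0.901 RPKM in sham (SD, n = 3 each; adjusted p = 0.749). BCAN (brevican) and VCAN (versican), proteoglycans of the extracellular matrix, averaged 33.8 ± 1.91 and 7.15 ± 0.361 RPKM in pacing, against 30.8 ± 3.93 and 7.84 ± 2.66 RPKM in sham (adjusted p = 0.732 for BCAN and 0.922 for VCAN). BCAN is made by astrocytes as well. NEU4, a sialidase, averaged 6.49 ± 0.880 RPKM in pacing and 5.73 ± 0.789 RPKM in sham (adjusted p = 0.724).

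The precursor members did not move as a block across the libraries. OLIG1, SOX10, VCAN and NKX2-2 were highest in sham replicate 2, whereas PDGFRA, OLIG2, BCAN and NEU4 were highest in pacing replicate 1. PDGFRA was lowest in sham replicate 2, the library with the most myelin transcript, so that its level stood at 1.34% of that of MBP there, at 3.89% and 4.29% in sham replicates 1 and 3 and at 2.38% to 3.86% in pacing.

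Members of the newly formed stage had a median log2 difference of -0.015 over 5 genes (2 higher, 3 lower). The stage is a label from textbook knowledge, and whether their transcripts came from newly formed or mature cells was not tested. BCAS1 had a mean of 278 RPKM over the 6 libraries, while the others of the class had 4.19 to 10.6 RPKM. GPR17, a G protein-coupled receptor of committed precursors, had 11.5, 9.65 and 9.65 RPKM in pacing and 9.62, 8.50 and 8.06 RPKM in sham (log2 difference 0.21, SE 0.11, adjusted p = 0.611). The arms were apart by a narrow margin, between 9.65 RPKM in pacing replicate 2 and 9.62 RPKM in sham replicate 1. Its exons share 188 bases with LIMS2, a gene model on the opposite strand, and the strand setting of the counting is not stated. ENPP6, a choline phosphodiesterase that marks oligodendrocytes as they form, had 8.67, 9.84 and 8.68 RPKM in pacing and 9.02, 10.03 and 5.40 RPKM in sham (adjusted p = 0.80).

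BCAS1, which marks cells that have begun to myelinate, had 254, 293 and 259 RPKM in pacing and 238, 432 and 193 RPKM in sham (log2 difference -0.015, SE 0.28, adjusted p = 0.989). MYRF, the membrane-bound factor that activates myelin genes, had 8.75, 11.4 and 10.9 RPKM in pacing and 11.4, 14.4 and 6.84 RPKM in sham (log2 difference -0.021, SE 0.24, adjusted p = 0.984). The homeobox gene NKX6-2 averaged 3.95 ± 0.628 RPKM in pacing and 4.43 ± 2.8 RPKM in sham (adjusted p = 0.986). For BCAS1, MYRF, ENPP6 and NKX6-2 all paced libraries lay inside the range of the sham libraries, and the sham extremes were replicate 3 at the low end and replicate 2 at the high end.

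Myelin genes gave a median log2 difference of 0.042 over 15 members (10 higher, 5 lower), beside -0.037 over all genes. It was 0.38 without sham replicate 2 and -0.19 without sham replicate 3. MBP, a protein that compacts the cytoplasmic faces of the sheath, had 159, 197 and 172 RPKM in pacing and 132, 302 and 106 RPKM in sham (log2 difference 0.11, SE 0.35, 95% interval -0.72 to 0.94, adjusted p = 0.935). The gap between sham replicates 2 and 3 was 2.84-fold, and all paced libraries lay within it. MOBP, an oligodendrocyte basic protein of the same compact layer, had 280.4, 396 and 348 RPKM in pacing and 314, 527 and 209 RPKM in sham (log2 difference 0.051, SE 0.32, adjusted p = 0.968). CNP, the phosphodiesterase of the non-compacted channels, had 126, 132 and 118 RPKM in pacing and 119.5, 167 and 89.8 RPKM in sham (log2 difference 0.042, SE 0.21, adjusted p = 0.958).

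Genes for proteins of the outer surface and of the axon contact also had their sham extremes in replicates 3 and 2. MOG, on the outermost lamella, had 15.8, 17.9 and 17.4 RPKM in pacing and 17.2, 26.2 and 10.8 RPKM in sham (log2 difference 0.0038, SE 0.27, adjusted p = 0.997). MAG, the adhesion molecule facing the axon, had 20.7, 22.1 and 20.2 RPKM in pacing and 18.3, 38.2 and 16.0 RPKM in sham (log2 difference -0.092, SE 0.29, adjusted p = 0.935). OPALIN, a glycoprotein of late oligodendrocytes, had 65.3, 69.9 and 62.6 RPKM in pacing and 47.4, 100.5 and 27.3 RPKM in sham (log2 difference 0.37, SE 0.41, adjusted p = 0.785). It had the widest range of the members, 3.69-fold from sham replicate 3 to sham replicate 2, with a coefficient of variation of 5.54% in pacing and 64.8% in sham.

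Most of the other myelin members again had sham replicate 2 as their highest library. ERMN (ermin, a cytoskeletal protein), CLDN11 (the claudin that seals the wraps) and MAL (a raft proteolipid) differed by log2 values of 0.092, 0.27 and 0.0043, and GJB1 (connexin 32) by -0.12. ASPA, the enzyme that splits N-acetylaspartate, averaged 18.2 ± 2.10 RPKM in pacing and 24.2 ± 18.5 RPKM in sham, where sham replicate 2 alone reached 45.6 RPKM. FA2H, which hydroxylates the fatty acids of myelin galactolipids, averaged 1.44 ± 0.248 RPKM in pacing and 1.48 ± 0.403 RPKM in sham. TSPAN2, a tetraspanin, had another order of libraries, with 1.81, 2.44 and 1.89 RPKM in pacing and 2.67, 0.869 and 1.02 RPKM in sham, lowest in the library where most myelin members were highest.

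PLLP was the member with the largest difference between the arms. It encodes plasmolipin, a small 4-span proteolipid of myelin membrane related to MAL, and lies on chromosome 2 from 59102689 to 59125165. PLLP had 14.9, 17.7 and 16.3 RPKM in pacing and 11.1, 8.98 and 4.85 RPKM in sham, from 3224 reads in pacing and 1990 in sham. Every paced library was above every sham library, and the ratio of the arm means was 1.96. The log2 difference was 0.95 (SE 0.25, 95% interval 0.36 to 1.54, unadjusted p = 0.00636), and it did not pass over all genes, with adjusted p = 0.383 in limma. With any 1 library left out its log2 difference stayed between 0.65 and 1.17, with adjusted p from 0.0898 to 0.975.

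UGT8, the enzyme that makes the galactosylceramide of myelin, had the most negative difference among the members, with 17.4, 20.0 and 18.9 RPKM in pacing and 20.9, 47.0 and 18.6 RPKM in sham (log2 difference -0.47, SE 0.31, adjusted p = 0.655). The arms overlapped, and without sham replicate 2 the difference shrank to a log2 value of -0.068.

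To separate the members from the amount of myelin transcript in a library, each was also set against the summed RPKM of the other myelin members; this ratio was chosen after the values had been seen and carries no test. By this ratio the arms were apart for 3 of 28 members, PLLP and OLIG2 higher and UGT8 lower, where 0.876% of all genes were higher and 3.83% lower. The all-gene shares are no measure for the members, because the myelin sum ranged more widely in sham than in pacing. It ran from 572 to 1447 RPKM in sham and 817 to 1023 in pacing, so genes that do not follow myelin tend to overlap. By RPKM alone 4.92% of all genes lay above and 11.3% below. PLLP stood at 18.6, 17.6 and 18.1 RPKM per 1000 RPKM of the other myelin members in pacing and at 14.3, 6.24 and 8.55 in sham. UGT8 stood at 21.8, 20.0 and 21.1 per 1000 in pacing and at 27.2, 33.5 and 33.7 in sham, so that the high raw value of sham replicate 2 was no longer apart from that of sham replicate 3. OLIG2 stood at 5.48, 4.0 and 4.26 per 1000 in pacing and at 3.28, 2.53 and 3.65 in sham. GPR17 no longer separated the arms, at 14.1, 9.43 and 10.5 per 1000 in pacing and 12.2, 5.88 and 14.1 in sham. The tightest ratios were those of ERMN and BCAS1, which ranged over 1.18-fold and 1.19-fold across the 6 libraries, and the loosest was that of TSPAN2, over 5.66-fold.

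**Figure D3:**
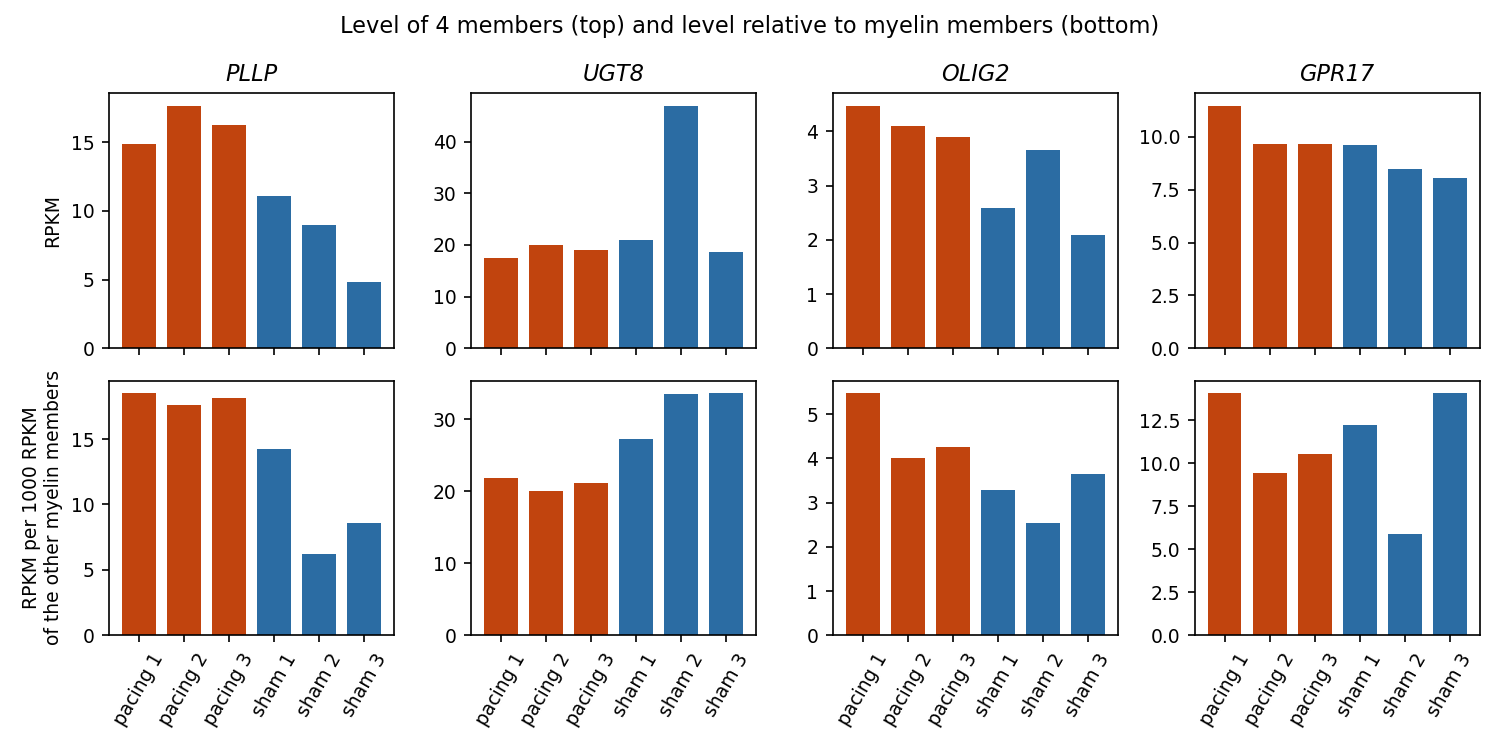
RPKM of PLLP, UGT8, OLIG2 and GPR17 in each library (top row) and the same values per 1000 RPKM of the other myelin members (bottom row), pacing in orange and sham in blue, with axes starting at 0. PLLP and OLIG2 are higher in all paced libraries in both rows, UGT8 is lower in all paced libraries in the bottom row alone, and GPR17 separates the arms in the top row alone.

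The comparison of precursor with myelin genes used the mean log2(RPKM + 1) of the tested precursor members minus that of the myelin members in each library. This balance was -0.81, -1.12 and -1.04 in pacing and -1.11, -1.27 and -0.60 in sham, and the arm means differed by 0.0058. The sham range enclosed all paced libraries. By summed RPKM, the precursor members came to 15.7%, 12.6% and 13.2% of the myelin members in pacing and to 11.96%, 11.5% and 17.9% in sham. The largest parts of the precursor sum were OLIG1, BCAN and SOX10, with means of 53.0, 32.3 and 12.9 RPKM, while PDGFRA had 5.09 RPKM. BCAN is also made by astrocytes and SOX10 is kept on through the whole lineage, so the sum is not one of precursor cells alone. OLIG1, its largest part, was highest in sham replicate 2 (80.7 RPKM), where the myelin sum was highest too, and lowest in sham replicate 1 (31.4 RPKM). The part of later oligodendrocytes in the level of OLIG1 was not tested. The precursor sum itself was 121 to 129 RPKM in pacing and 94.4 to 166 RPKM in sham, and the myelin sum was 817 to 1023 RPKM in pacing and 572 to 1447 RPKM in sham. The balance was therefore highest in the sham library with the least myelin transcript and lowest in the sham library with the most.

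The members varied more among sham libraries than among paced ones. The median coefficient of variation of the 28 tested members was 10.3% in pacing and 43.5% in sham, beside 8.39% in pacing and 17.0% in sham over all genes. It was larger in sham for 26 of 28 members, as it was for 78.2% of all genes. Over the myelin members the medians were 11.1% in pacing and 50.5% in sham, and over the precursor members 8.04% in pacing and 27.7% in sham. Over sham replicates 1 and 3 alone the median in sham was 20.1% for myelin and 18.6% for precursor members, beside 11.6% for all genes. It rests on 2 libraries against 3 in pacing. The coefficient was then larger in sham for 11 of 15 myelin members and 7 of 8 precursor members, and for 60.7% of all genes.

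Sham replicate 2 was the highest library for 21 of the 28 members, among them 13 of 15 myelin genes, and for 33% of all genes. Sham replicate 3 was the lowest for 19 members, among them 11 of 15 myelin genes, and for 15.5% of all genes. All paced libraries lay within the sham range for 20 of 28 members, against 35.9% of all genes. Against the mean of the paced libraries, myelin members stood at a median of 0.833 in sham replicate 1, 1.55 in sham replicate 2 and 0.632 in sham replicate 3. Over all genes these medians were 1.005, 1.05 and 1.05.

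**Figure D4:**
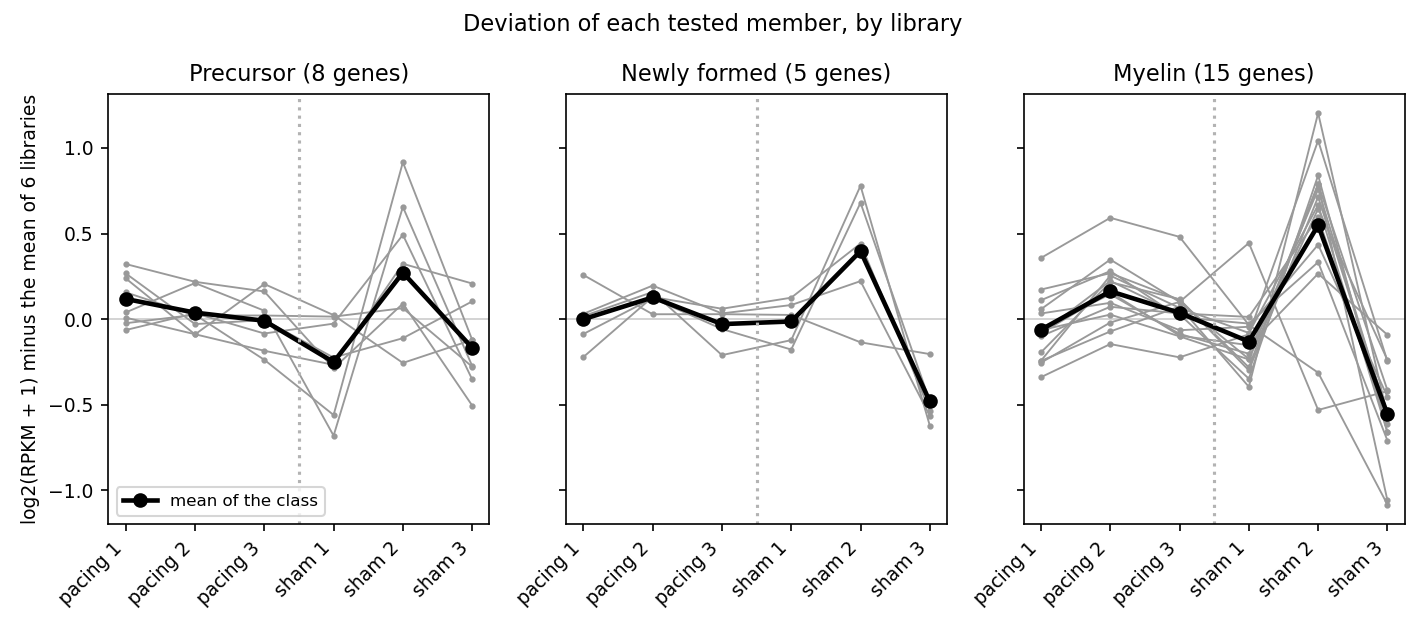
Deviation of log2(RPKM + 1) from the mean of the 6 libraries for each tested member (grey) and for the mean of its class (black), with pacing left of the dotted line and sham right of it. The myelin mean runs from -0.062 to 0.16 in pacing, and in sham reaches 0.55 in replicate 2 and -0.56 in replicate 3.

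Some marker lists of other cells had their extreme value in sham replicate 2, and others did not. The 6 neuronal markers summed to 1467 to 1744 RPKM in pacing and 996 to 1669 RPKM in sham, lowest in sham replicate 2. The 5 astrocyte markers found, of 6 listed, summed to 1526 to 1757 RPKM in pacing and 1377 to 2390 RPKM in sham, highest in sham replicate 2. GFAP, the astrocyte filament protein, made up 1525 RPKM of that library's sum. AQP4 and GJA1 were also highest in that library, at 119 and 79.5 RPKM. The glutamate transporters SLC1A2 and SLC1A3 were highest in pacing replicate 1, at 242 and 527 RPKM. The 5 choroid plexus markers summed to 72.9 to 156 RPKM in pacing and 2.61 to 453 RPKM in sham, again highest in sham replicate 2. This sum was almost all TTR, which reached 449 RPKM, while no other marker of the list exceeded the 2.14 RPKM of CLIC6. Of the 5 markers 2 were tested, 1 of them highest in sham replicate 2 and 1 in pacing replicate 2. FOLR1 and AQP1 were each listed at 0 in 1 library. Peripheral myelin was low: the 4 Schwann cell markers found, of 5 listed, summed to 2.08 to 2.51 RPKM in pacing and 1.99 to 5.52 RPKM in sham. The pericyte and smooth muscle markers, all 6 found, summed to 31.7 to 33.0 RPKM in pacing and 27.5 to 28.9 RPKM in sham, so that the arms were apart and the sham libraries close together. The microglial markers summed to 43.5 to 51.7 RPKM in pacing and 36.8 to 45.9 RPKM in sham, highest in pacing replicate 2. Of these 6 markers 4 were higher in pacing and 2 lower (median log2 difference 0.30). At an unadjusted p under 0.05 in limma 2 were higher, and 0 passed. For 2 the arms were apart with pacing higher. Over all genes 2.85% were higher at that unadjusted p and 4.92% had arms apart and higher. The endothelial markers summed to 16.7 to 17.5 RPKM in pacing and 13.9 to 18.5 RPKM in sham. The ependymal ones, 4 found of 5 listed, summed to 12.7 to 23.2 RPKM in pacing and 16.5 to 33.5 RPKM in sham, where replicate 2 was lowest. All 4 were lower in pacing (median log2 difference -0.52), 3 of them at an unadjusted p under 0.05 in limma and 0 passing. For 2 of the 4 the arms were apart. Over all genes 6.3% were lower at that unadjusted p and 11.3% had arms apart and lower. The part of these cells in the values of the members was not tested.

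Further genes of the lineage were counted from wider lists. Of 32 other myelin genes tested 0 passed, 10 were higher and 22 lower in pacing (median log2 difference -0.040), and 26 were highest in sham replicate 2. CDK18, a cyclin-dependent kinase, was below the sham libraries in every paced library, at 2.45 ± 0.0497 RPKM in pacing and 3.34 ± 0.70 RPKM in sham (log2 difference -0.32, adjusted p = 0.540). The genes with the next smallest p were EDIL3 (log2 difference 0.20) and ADAMTS4 (-0.32).

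Of 23 other precursor genes tested 0 passed, with 15 higher and 8 lower (median 0.079). The arms were apart with pacing higher for 3 and with pacing lower for 1, beside 4.92% and 11.3% of all genes. SOX4, a transcription factor that restrains myelination in mouse, had 8.85, 8.19 and 7.35 RPKM in pacing and 11.2, 19.7 and 15.0 RPKM in sham, below every sham library in each paced one (log2 difference -0.80, unadjusted p = 0.00355, adjusted p = 0.348). LUZP2, a leucine zipper gene, averaged 50.7 ± 6.73 RPKM in pacing and 39.3 ± 1.72 RPKM in sham, with the arms apart (log2 difference 0.35, adjusted p = 0.455). EMID1, a secreted matrix protein, averaged 9.35 ± 1.93 RPKM in pacing and 5.68 ± 1.97 RPKM in sham (log2 difference 0.66, adjusted p = 0.487).

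Of 14 other genes of the newly formed stage 0 passed, 2 were higher and 12 lower (median -0.085). The arms were apart for 2, BMP4 and TMEM108, both lower in pacing, beside 11.3% of all genes apart and lower. BMP4, a morphogen that newly committed cells make, stood at 1.34, 1.36 and 1.48 RPKM in pacing and 1.49, 3.22 and 2.33 RPKM in sham (log2 difference -0.45, adjusted p = 0.543), with TMEM108 at -0.18 and P2RX7 at -0.24. Of 23 regulators and signals of the lineage 0 passed, 10 were higher and 13 lower (median -0.031). PDGFA, the ligand of PDGFRA, averaged 16.7 ± 0.847 RPKM in pacing and 19.2 ± 0.968 RPKM in sham, with the arms apart (log2 difference -0.19, adjusted p = 0.583). FGFR1 and RXRG, a growth factor receptor and a nuclear receptor, differed by -0.13 and -0.55.

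The lists ended with the enzymes that make myelin lipid. Of 21 genes of cholesterol, fatty acid and sphingolipid synthesis 0 passed, 8 were higher and 13 lower (median -0.013). Their median ratio of sham replicate 2 to sham replicate 3 was 0.970, beside 2.43 for the myelin members, 2.11 for the other myelin genes, 1.52 for the precursor members, 1.003 for the other precursor genes and 1.003 for all genes. Many of these enzymes are made by neurons and astrocytes too. The genes with the smallest p were DHCR7 (log2 difference -0.24), SQLE (0.16) and IDI1 (0.12), enzymes of cholesterol synthesis, with adjusted p = 0.611, 0.628 and 0.753.

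**Figure D5:**
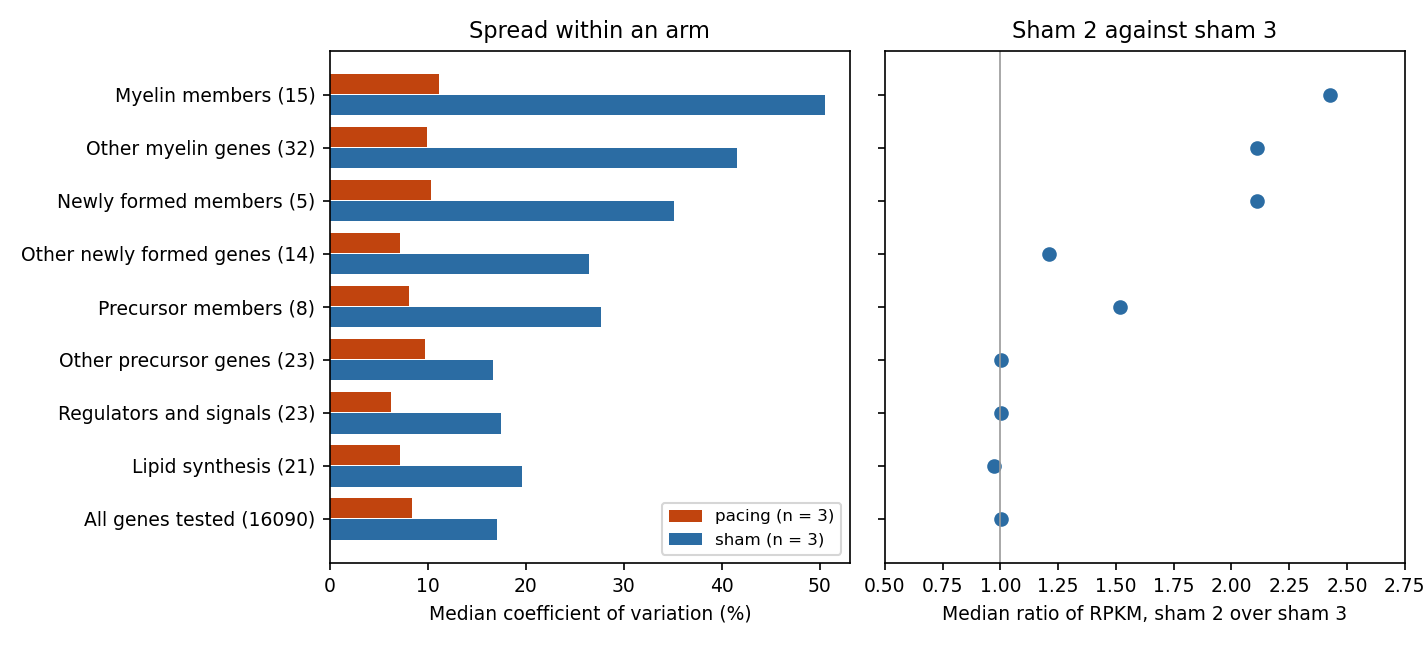
Left, the median coefficient of variation of RPKM within pacing (orange) and within sham (blue) for members, for the wider lists and for all genes, with the number of genes tested in parentheses; right, the median ratio of RPKM in sham replicate 2 to sham replicate 3. Myelin members reach 50.5% in sham and a ratio of 2.43, and all genes 17.0% and 1.003.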

How the data were processed

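Hippocampal messenger RNA was sequenced in 6 libraries; the 6 exosome libraries of the study are not used here. The submitters' processing notes name Trimmomatic 0.36, STAR 2.5.3a and featureCounts, without an order, an annotation release or a strand setting. The values deposited by the authors are RPKM. RPKM times gene length was divided by its smallest nonzero value in each library, taken as a single read. This gave whole reads (tolerance 0.01) for 100.0% of values. Read totals and reads per member were taken from these and used for description alone. Sequence names in the table are those of CanFam3.1, the build of all coordinates.

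Genes with a mean of at least 0.5 RPKM were tested with limma 3.58.1 (trend) in R 4.3.3 on log2(RPKM + 1), which understates changes of low genes. Every difference is pacing minus sham, with Benjamini-Hochberg adjustment over all 16090 genes. Alternatives changed the pseudocount, filter, scaling, library weights and replicate block, or left out each library. The fit was tested on simulated data. All members are named; of each wider list up to 3 genes of smallest p are named, and 1 further gene that the rule named is not reported here. The stage of each member was set from textbook knowledge. The members, classes and lists were chosen with earlier results of these data known.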

Additional observations from a re-analysis of the deposited data

How the results depend on the processing

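No member passed under any alternative, and the smallest adjusted p was 0.0898, for PLLP without sham replicate 1. The count of 4 passing genes became 7 with no filter, 23 with library weights and 3 to 95 with a library left out (95 without sham replicate 1, 9 without sham replicate 2). With the replicate block it became 7 (5 of them higher). The labels do not state whether libraries of the same number belong together. Deviations of same-numbered libraries correlated at -0.111, 0.0636 and -0.0109, and those of differently numbered ones at -0.232 to 0.27. With 3 libraries an arm these correlations cannot decide whether the samples are paired. The block changed no call on a member. The median differences of the precursor and myelin classes, their balance and their RPKM ratio each took both signs with a library left out. They ranged over -0.0050 to 0.18 (precursor), -0.19 to 0.38 (myelin), -0.13 to 0.20 (balance) and -1.04 to 2.14 percentage points (ratio). Under all alternatives run they moved by less than 1 SD between libraries within an arm. For the balance and the ratio, leaving out 1 of 3 libraries cannot move the difference by 1 such SD. That limit is therefore no measure of stability there. A count model on recovered reads was planned as an alternative and is not reported, because the deposited values are RPKM, not counts.

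Of 28 members, 9 kept the direction of their difference throughout (PDGFRA, OLIG2, BCAN, NEU4, NKX2-2, GPR17, UGT8, TSPAN2 and PLLP), and 19 changed it in 52 of 390 values; none of these was called, and the cause was not tested. With a library left out the log2 differences ran from -0.091 to 0.58 for OLIG1, -0.48 to 0.26 for SOX10, -0.27 to 0.15 for VCAN, -0.065 to 0.33 for ENPP6, -0.26 to 0.32 for BCAS1, -0.34 to 0.36 for NKX6-2, -0.29 to 0.19 for MYRF, -0.19 to 0.56 for MBP, -0.30 to 0.30 for MOG, -0.32 to 0.28 for MAG, -0.27 to 0.40 for MOBP, -0.17 to 0.27 for CNP, -0.019 to 0.50 for CLDN11, -0.068 to 0.85 for OPALIN, -0.16 to 0.47 for ERMN, -0.48 to 0.40 for ASPA, -0.28 to 0.38 for MAL, -0.096 to 0.12 for FA2H and -0.26 to 0.18 for GJB1. Library weights gave 0.0061 for SOX10, 0.10 for VCAN, 0.22 for BCAS1, 0.27 for NKX6-2, 0.20 for MYRF, 0.15 for MAG, 0.19 for ASPA, 0.037 for FA2H and 0.045 for GJB1. Median-of-ratios scaling gave 0.034 for BCAS1, 0.016 for NKX6-2, 0.024 for MYRF and 0.016 for FA2H. Quantile scaling gave 0.027 for NKX6-2, 0.0041 for MYRF and 0.041 for FA2H. A pseudocount of 0.1 gave 0.00037 for NKX6-2, and one of 5 gave -0.0092 for MOG and -0.023 for MAL. With 3 libraries an arm, the 95% intervals of the myelin members reached from -1.21 to 1.54 on the log2 scale.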
